A study of Bos taurus with 9 samples.

Results

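Epithelial junction and polarity genes were examined in single day 8 (D8) bovine blastocysts with and without *TEAD4*. This gene encodes a member of the TEAD family of transcription factors, through which the Hippo pathway acts. The set holds 39 genes of the 21512 in the table, taken by symbol, and falls into tight junctions (12 genes), adherens junctions (6), desmosomes (7), apicobasal polarity (12) and the cell cortex (2). The 5 wild type (WT) embryos came from oocytes injected with Cas9 mRNA alone before fertilization and carried no mutated allele. The 4 *TEAD4* -/- (KO) embryos came from oocytes injected with Cas9 mRNA and a guide against the fourth exon of *TEAD4*, and held only alleles with frame-disrupting insertions or deletions, formed at random in each embryo. All 9 were produced in vitro, and each library is 1 whole blastocyst, with inner cell mass (ICM) and trophectoderm (TE) together. In such bulk samples, fewer cells of a type and less RNA per cell cannot be told apart. The deposited values are TPM, a unit of transcript abundance in which values are scaled for transcript length and sum to 1000000 in each library.

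The trophectoderm, the outer layer of the blastocyst, is the first epithelium of the embryo. Its cells are sealed at their apical borders by tight junctions, in which claudins and occludin span the membrane and zonula occludens proteins bind them to the cytoskeleton, so that fluid can be held in the blastocoel. Adherens junctions, built on E-cadherin and the catenins, and desmosomes, which anchor keratin filaments, hold the cells together below the seal. The PAR, Crumbs and Scribble protein groups set up the apical and basolateral faces, and in the mouse embryo polarity and junction proteins feed into the Hippo pathway upstream of YAP and *TEAD4*.

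Each library listed between 14776 and 16678 genes above 0 TPM, and pairwise correlations of log2(TPM + 1) across genes ranged from 0.913 to 0.984. TPM keep no read numbers, so the depth behind each value is unknown and no counting interval is given. *TEAD4* was at 18.04, 52.5, 54.3, 36.5 and 43.4 TPM in the WT embryos and at 42.8, 41.8, 12.5 and 22.2 TPM in the KO embryos. The groups overlapped (log2 fold change −0.51, SE 0.42; limma adjusted p = 0.947). Frame-disrupting alleles can still be transcribed, so this level does not check the genotype. Median-of-ratios size factors, which compare the bulk of genes between libraries, ran from 0.759 in KO embryo 1 to 1.24 in KO embryo 2, and the median log2 fold change over all 14599 genes tested was −0.05. With these size factors applied it was −0.01.

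Most junction and polarity transcripts were well above detection in every embryo of both genotypes. Of the 39 genes, 37 had a mean above 1 TPM, 31 above 10 TPM and 12 above 100 TPM, and 37 were above 0 TPM in all 9 libraries. *CLDN6* and *EZR*, with means of 2359 and 2268 TPM over the 9 embryos, stood at the 99.7th and 99.6th percentile of the genes tested. *CLDN4*, *RHOA* and *CRB3* followed at 986, 502 and 468 TPM. At the other end, *DSC3* and *PARD6G* were close to 0 and missed the filter on low values, a median above 0.1 TPM over the 9 libraries, so 37 of the 39 genes were tested.

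**Figure D1:**
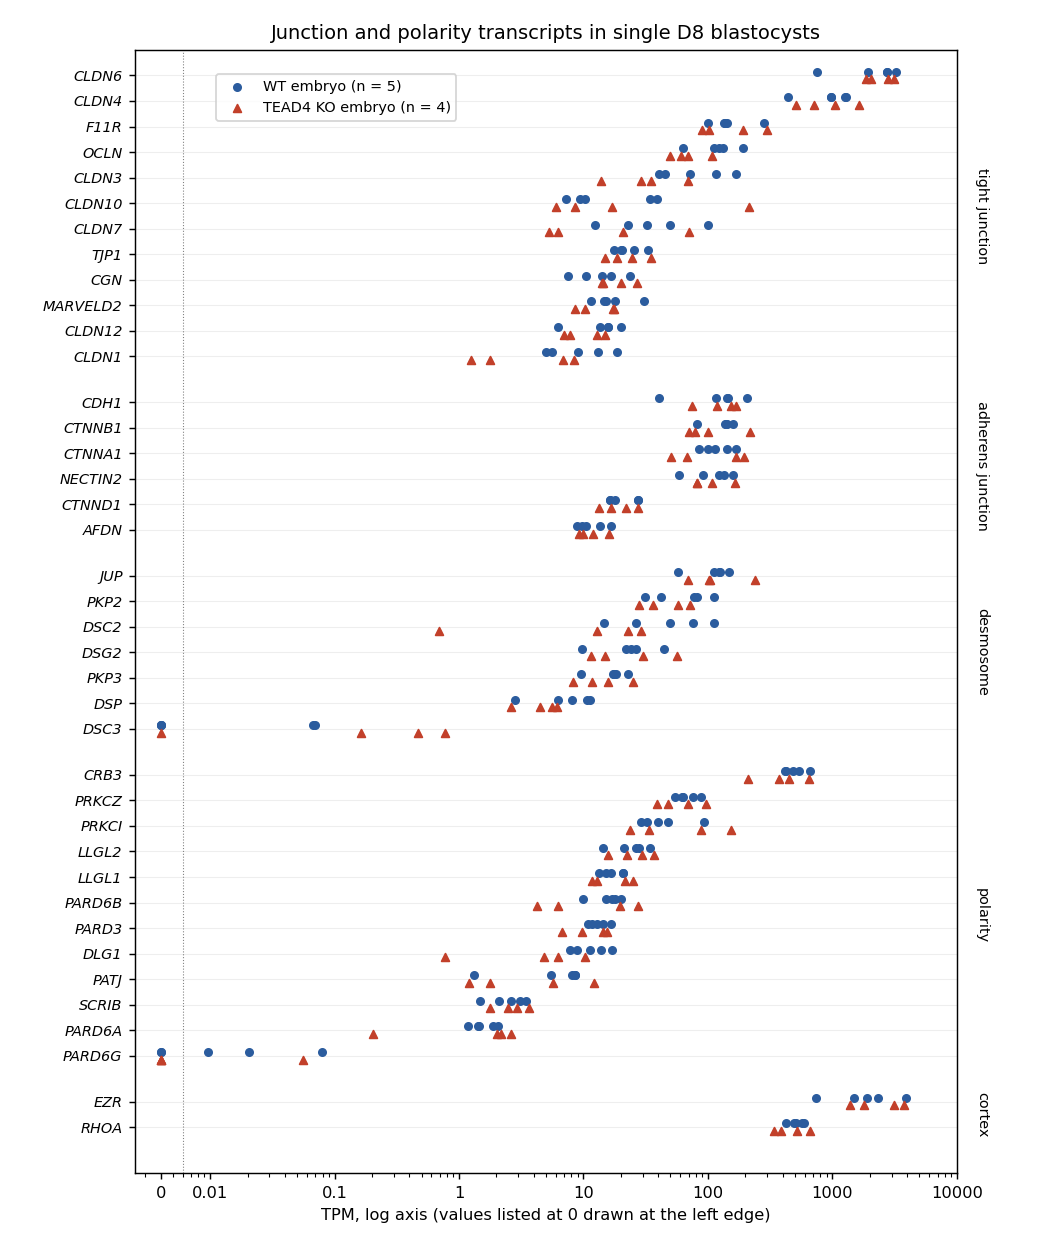
TPM of each of the 39 genes in every embryo on a log axis, with WT embryos (n = 5) as circles and *TEAD4* KO embryos (n = 4) as triangles; values of 0 are drawn at the left edge. *CLDN6* and *EZR* lie at the top of the range, *DSC3* and *PARD6G* near 0, and for every tested gene the WT and KO embryos overlap.

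None of the 37 tested genes passed an adjusted p of 0.05 in the comparison of KO with WT (limma on log2(TPM + 1), Benjamini-Hochberg over all genes tested), and the smallest adjusted p was 0.774. Among all 14599 genes, 3 passed (0.0205%), 1 of them with the lower level in KO (0.00685%). The paper used a model of read counts with an added threshold on fold change and reported many more genes as differing between these genotypes. Few calls by limma on TPM, in the set or over all genes, therefore do not show that levels were unchanged. No tested gene of the set had its WT and KO embryos apart from each other, which 296 of all genes (2.03%) had. An unadjusted p under 0.05 was reached by 5 of the 37 (13.5%), against 861 of all genes (5.90%). All 5 had the lower level in KO, a direction taken by 559 of all genes at this threshold (3.83%); another 302 (2.07%) had the higher level in KO. They were *OCLN*, *CLDN1* and *CLDN3* of the tight junction, *DSC2* of the desmosome and *DLG1* of the polarity genes. This count fell to 1 without WT embryo 1, WT embryo 5 or KO embryo 4, to 2 without WT embryo 2 or KO embryo 1 and to 3 without WT embryo 3. The share of all genes at this threshold ran from 3.99% to 8.42% when embryos were left out in turn.

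The log2 fold change, KO minus WT, was below 0 for 26 of the 37 genes (70.3%) and for 55.8% of all genes, with medians of −0.15 and −0.05. After scaling by size factors, 21 of 37 were below 0 with a median of −0.09 (50.8% of all genes), and after quantile normalization 22 of 37 with a median of −0.11 (47.8% of all genes). The median of the set moved to −0.38 without KO embryo 2 and to −0.02 without KO embryo 1. For 15 of the 37 genes (40.5%) the 95% interval of the fold change lay within 1 log2 unit of 0, as it did for 56.8% of all genes, so that for the other genes of the set a doubling or halving was not outside the interval.

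**Figure D2:**
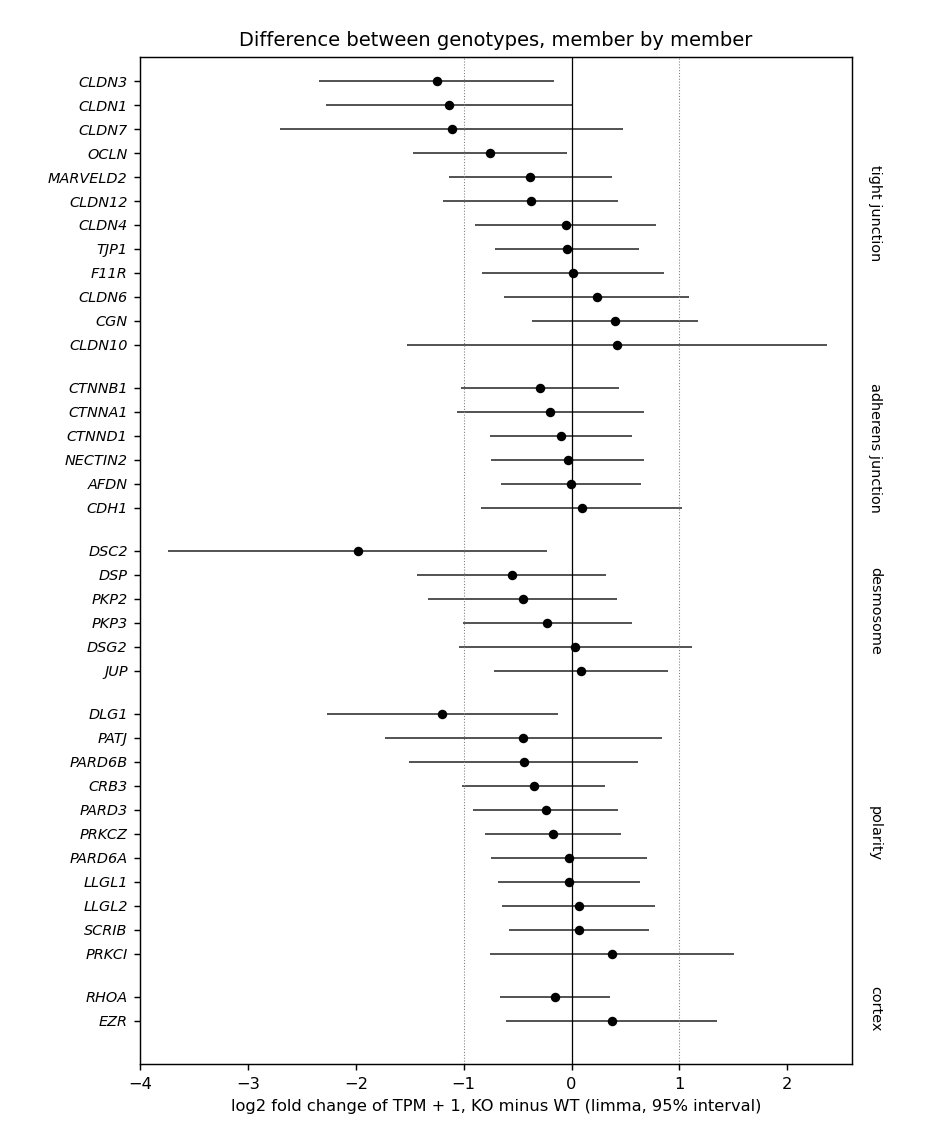
Log2 fold change of TPM + 1, KO minus WT, with its 95% interval from limma for the 37 genes tested, grouped by structure; dotted lines mark 1 log2 unit either way. Intervals that leave out 0 belong to *CLDN3*, *CLDN1*, *OCLN*, *DSC2* and *DLG1*, all on the lower side, and none passed after adjustment over all genes.

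Among the tight junction genes the bulk of the claudin transcripts did not differ between genotypes beyond the spread between embryos, and the lowest KO levels relative to WT were those of less abundant claudins and of occludin. All 12 were tested, none passed, 8 were below 0 in KO minus WT and 4 above, and the median log2 fold change was −0.22, which became −0.43 without KO embryo 4 and −0.076 without KO embryo 1. *CLDN6*, a claudin of early embryonic epithelia, was at 2738, 3229, 1930, 747 and 2773 TPM in WT and at 2048, 3107, 2810 and 1853 TPM in KO. Every KO embryo lay inside the WT range (log2 fold change 0.23, SE 0.39, 95% interval −0.62 to 1.08; limma adjusted p = 0.982). *CLDN4*, a claudin common in tight epithelia, was at 1295, 975, 1268, 438 and 979 TPM in WT and 716, 1056, 1633 and 513 TPM in KO. Its groups were interleaved, with WT embryo 4 the lowest of all 9 (log2 fold change −0.06, SE 0.38, 95% interval −0.89 to 0.78; limma adjusted p = 0.994).

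*CLDN3*, which like *CLDN4* can bind Clostridium perfringens enterotoxin, had 44.9, 116, 71.4, 40.6 and 169 TPM in WT and 28.8, 34.8, 69.5 and 13.8 TPM in KO. All but KO embryo 3 lay below the lowest WT embryo, while KO embryo 3 was close to the WT median of 71.4. The log2 fold change was −1.25 (SE 0.50, 95% interval −2.33 to −0.17; limma adjusted p = 0.774; exact permutation test, two-sided, p = 0.0794), and −0.87 without KO embryo 4. *CLDN1*, a barrier claudin best known from the epidermis, was the scarcest of the 7 claudins, at 18.6, 4.96, 13.01, 9.12 and 5.57 TPM in WT and 1.25, 6.88, 8.35 and 1.76 TPM in KO. KO embryos 1 and 4 were below every WT embryo, and KO embryos 2 and 3 were within the WT range. Here the log2 fold change was −1.14 (SE 0.52, 95% interval −2.26 to −0.01; limma adjusted p = 0.836; exact permutation test, two-sided, p = 0.127), and −0.79 without KO embryo 1.

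*OCLN* (occludin), a tetraspan protein of the tight junction strand named here after its values were seen, was at 191, 122, 112, 63.6 and 133 TPM in WT and 49.5, 108, 60.5 and 69.3 TPM in KO. The KO embryos lay below the WT embryos except that KO embryos 2 and 4 exceeded WT embryo 4. Its log2 fold change was −0.76 (SE 0.32, 95% interval −1.46 to −0.06; limma adjusted p = 0.808; exact permutation test, two-sided, p = 0.0635). Without WT embryo 4, *OCLN* and *DSP* were the genes of the set whose groups no longer overlapped, without KO embryo 2 it was *DLG1*, and without KO embryo 3 it was *CLDN3*.

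The other 7 tight junction genes had log2 fold changes from −1.11 (*CLDN7*) to 0.42 (*CLDN10*), and both of these, named after their values were seen, had 1 KO embryo far from the rest. *CLDN7* was at 70.0 TPM in KO embryo 1 and between 5.29 and 20.7 TPM in the other KO embryos, against 12.3 to 99.3 TPM in WT. *CLDN10* was at 214 TPM in KO embryo 4 and between 6.02 and 16.9 TPM in the other KO embryos, against 7.27 to 39 TPM in WT, and its log2 fold change was −0.66 without KO embryo 4. The scaffold proteins *TJP1* (ZO-1) and *CGN* (cingulin), the adhesion receptor *F11R* (JAM-A), *MARVELD2* (tricellulin, at corners where cells meet) and *CLDN12* had fold changes between −0.38 and 0.40, and means over all embryos between 12.6 TPM for *CLDN12* and 165 TPM for *F11R*.

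Together the 7 claudins summed to 3451 ± 1290 TPM in WT (SD, n = 5) and to 3573 ± 970 TPM in KO (SD, n = 4). The lowest sum, 1260 TPM, was that of WT embryo 4, and the next lowest, 2616 TPM, that of KO embryo 4. *CLDN6* and *CLDN4* made up between 90.5% and 98.4% of this sum in every embryo, and *CLDN6* alone between 57.6% and 73.4%. The embryo at 90.5% was KO embryo 4, in which *CLDN10* held 8.17% of the claudin sum, against at most 1.02% in the other embryos. *CLDN3* held 2.65% ± 1.19 in WT (SD, n = 5) and 0.968% ± 0.417 in KO (SD, n = 4).

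**Figure D3:**
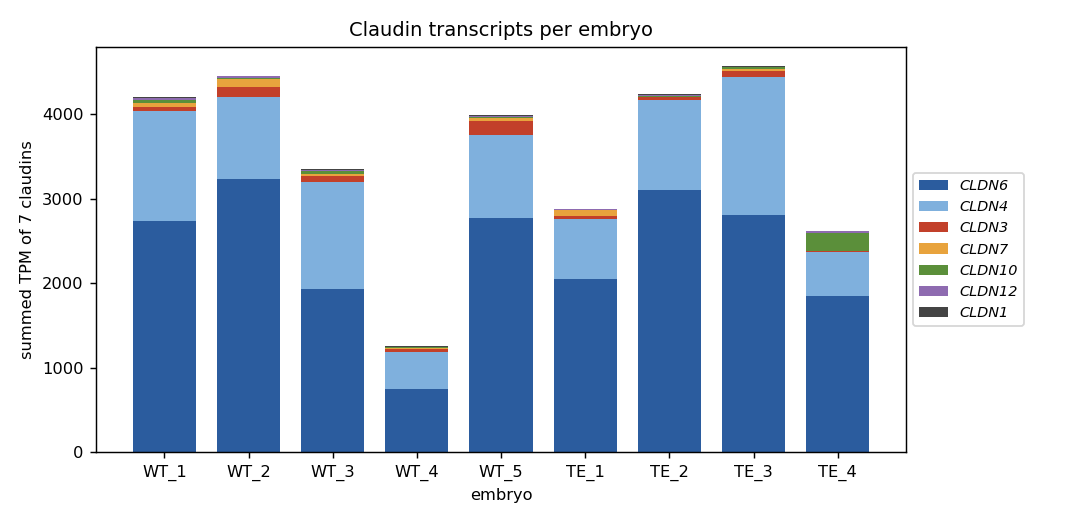
Summed TPM of the 7 claudins in each embryo (bars from 0, WT_1 to WT_5 and *TEAD4* KO TE_1 to TE_4), divided by gene. *CLDN6* and *CLDN4* fill most of each bar, the bar of WT_4 is the lowest at 1260 TPM, and *CLDN10* is visible in TE_4.

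Adherens junction transcripts did not differ between genotypes beyond the spread between embryos, and the intervals of 3 of the 6 genes stayed within 1 log2 unit of 0 while the other 3 reached beyond it. All 6 were tested, none passed, and none reached an unadjusted p under 0.05. Of the fold changes, 5 were below 0 and 1 above, with a median of −0.06, which became 0.07 without KO embryo 1. *CDH1* (E-cadherin), the adhesion receptor of the blastocyst epithelium, was at 208, 116, 146, 40.1 and 142 TPM in WT and at 74.8, 168, 119 and 152 TPM in KO. The KO embryos were within the WT range, whose lowest value was again WT embryo 4 (log2 fold change 0.09, SE 0.42, 95% interval −0.83 to 1.02; limma adjusted p = 0.993). Without WT embryo 4 it was −0.28.

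*CTNNB1* (β-catenin), which binds the tail of E-cadherin and also carries Wnt signals, had 158, 142, 138, 81.8 and 140 TPM in WT and 71.0, 218, 78.0 and 99.5 TPM in KO. KO embryo 2 was the highest of all 9, and KO embryos 1 and 3 were the lowest (log2 fold change −0.29, SE 0.33; limma adjusted p = 0.971). *CTNNA1* (α-catenin), the link from this complex to actin, showed the same wide KO range, with 167, 100, 142, 84.2 and 115 TPM in WT and 50.3, 169, 67.6 and 194 TPM in KO. Its KO embryos lay on both sides of the WT range (log2 fold change −0.20, SE 0.40; limma adjusted p = 0.982). *CTNND1* (p120-catenin), *NECTIN2*, a nectin adhesion receptor, and its adaptor *AFDN* (afadin) had means of 20.5, 111 and 11.8 TPM and fold changes between −0.10 and 0.00.

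In the desmosome the fold changes were unequal between genes, with *DSC2* at the low end and plakoglobin near 0. Of its 7 genes 6 were tested and none passed. The fold change was below 0 for 4 and above 0 for 2, with a median of −0.34, which ranged from −0.58 to −0.18 when embryos were left out in turn. *DSC2* (desmocollin 2), a desmosomal cadherin, was at 111, 49.1, 26.3, 14.6 and 75.8 TPM in WT and 12.9, 22.7, 28.9 and 0.688 TPM in KO. KO embryos 1 and 4 were below every WT embryo, and KO embryo 4 was far below all others. Its fold change had the greatest size in the set, −1.98 on the log2 scale (SE 0.80, 95% interval −3.74 to −0.23; limma adjusted p = 0.783; exact permutation test, two-sided, p = 0.0794). Without KO embryo 4 it was −1.07.

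The plaque protein *JUP* (plakoglobin), shared by desmosomes and adherens junctions, was at 125, 112, 124, 57.1 and 147 TPM in WT and 69.6, 237, 103 and 102 TPM in KO. KO embryo 2 was the highest and WT embryo 4 the lowest of the 9 (log2 fold change 0.09, SE 0.37; limma adjusted p = 0.992). *PKP2* (plakophilin 2), another plaque protein, had 112, 76.6, 41.9, 31.5 and 81.9 TPM in WT and 35.9, 71.9, 27.9 and 57.5 TPM in KO. All KO values but the lowest were inside the WT range (log2 fold change −0.45, SE 0.40; limma adjusted p = 0.956). *DSP* (desmoplakin), which ties the plaque to keratins, was at 11.2, 8.09, 6.28, 2.80 and 10.6 TPM in WT and 4.48, 6.11, 5.62 and 2.63 TPM in KO. The KO embryos lay between 2.63 and 6.11 TPM, with the lowest just under the WT range (log2 fold change −0.56, SE 0.40; limma adjusted p = 0.931).

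Of the remaining desmosomal genes, *PKP3* and *DSG2* had means of 16.2 and 26.8 TPM and fold changes of −0.22 and 0.04. *DSC3*, a second desmocollin, was listed at 0, 0, 0.0669, 0 and 0.0695 TPM in WT and at 0.767, 0.470, 0.163 and 0 TPM in KO, and was not tested. *DSC2* made up at least 94.4% of the *DSC2* and *DSC3* sum in each embryo, and *PKP2* between 63.9% and 87.5% of the *PKP2* and *PKP3* sum.

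**Figure D4:**
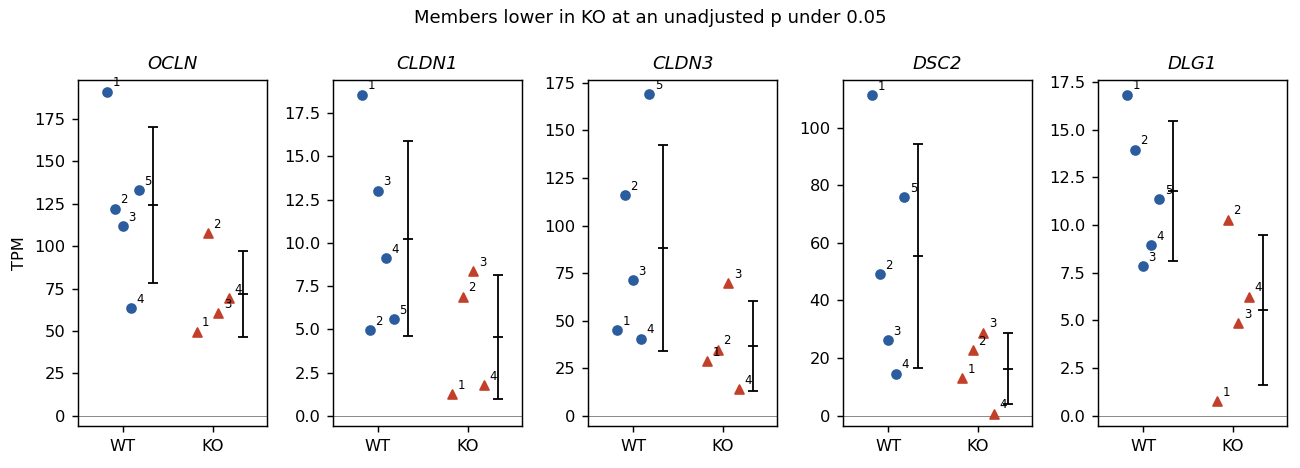
TPM of *OCLN*, *CLDN1*, *CLDN3*, *DSC2* and *DLG1*, the genes of the set at an unadjusted p under 0.05, in each numbered WT embryo (circles, n = 5) and KO embryo (triangles, n = 4), with mean and SD at the side. In each panel at least 1 KO embryo lies within the WT range, and the lowest embryo is a KO embryo, number 1 for *OCLN*, *CLDN1* and *DLG1* and number 4 for *CLDN3* and *DSC2*.

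Among the polarity genes transcripts of the PAR, Crumbs and Scribble groups were above 0 TPM in each embryo except for *PARD6G*, and *DLG1* was the gene with the lowest KO level relative to WT. Of the 12 genes 11 were tested and none passed. The fold change was below 0 for 8 and above 0 for 3, with a median of −0.17. That median was −0.39 without KO embryo 2 and −0.03 without KO embryo 1. *DLG1*, the Discs large scaffold of the Scribble group, was at 16.8, 13.9, 7.84, 8.94 and 11.4 TPM in WT and 0.768, 10.3, 4.85 and 6.25 TPM in KO. KO embryos 1, 3 and 4 were below every WT embryo and KO embryo 2 was inside the WT range. The log2 fold change was −1.20 (SE 0.49, 95% interval −2.26 to −0.13; limma adjusted p = 0.784; exact permutation test, two-sided, p = 0.0476, where the smallest possible p is 0.0159), and −0.66 without KO embryo 1.

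*CRB3*, the small Crumbs protein of the apical membrane, was the most abundant polarity transcript, at 486, 663, 428, 413 and 538 TPM in WT and 374, 452, 652 and 211 TPM in KO. KO embryos 1 and 4 were below the WT range and the others within it (log2 fold change −0.35, SE 0.30; limma adjusted p = 0.953). *PATJ*, a scaffold of the Crumbs group, was at 8.47, 8.10, 5.47, 1.32 and 8.62 TPM in WT and 1.78, 12.2, 1.21 and 5.70 TPM in KO. Its KO embryos spanned the whole range, with KO embryo 2 the highest and KO embryo 3 the lowest of all (log2 fold change −0.45, SE 0.58; limma adjusted p = 0.982).

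The atypical protein kinases C, the enzymes of the PAR group, are encoded by *PRKCZ* and *PRKCI*. *PRKCZ* was at 62.5, 87.6, 61.4, 53.9 and 76.3 TPM in WT and 68.9, 96.8, 48.0 and 39.2 TPM in KO, with overlapping groups (log2 fold change −0.17, SE 0.28, 95% interval −0.79 to 0.45; limma adjusted p = 0.982). *PRKCI*, named after its values were seen, ranged from 29.1 to 93.6 TPM in WT and from 23.7 to 152 TPM in KO. The share of *PRKCI* in the sum of both kinases was between 25.6% and 47.7% in 7 embryos, 63.4% in WT embryo 4 and 79.5% in KO embryo 4. *PARD3*, the scaffold of the PAR group, had a mean of 12.5 TPM, and the adaptor *PARD6B* (15.3 TPM) made up between 69.9% and 95.4% of the PARD6 transcripts, with *PARD6A* at 1.66 TPM and *PARD6G* at no more than 0.0795 TPM in any embryo. On the basolateral side, *LLGL2* held 50.3% to 64.4% of the *LLGL1* and *LLGL2* sum, and *SCRIB* had a mean of 2.64 TPM. The 7 tested polarity genes other than *PRKCZ*, *CRB3*, *PATJ* and *DLG1* had fold changes between −0.44 (*PARD6B*) and 0.38 (*PRKCI*).

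The cortex genes did not pass either. *EZR* (ezrin), which links apical microvilli to actin, was at 3922, 2316, 1480, 738 and 1884 TPM in WT and 1382, 3778, 1796 and 3115 TPM in KO. All KO embryos lay within the WT range, which ran from WT embryo 4 to WT embryo 1 (log2 fold change 0.37, SE 0.44, 95% interval −0.59 to 1.34; limma adjusted p = 0.975). *RHOA*, the small GTPase of cortical actomyosin, had 589, 427, 574, 513 and 493 TPM in WT and 343, 666, 523 and 388 TPM in KO. Its interval was the narrowest in the set (log2 fold change −0.15, SE 0.23, 95% interval −0.65 to 0.35; limma adjusted p = 0.982).

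Variation between embryos was wide within both genotypes. The fold between the highest and the lowest embryo in TPM + 1 had a median of 3.36 over the 37 tested genes, against 2.71 over all genes tested and 2.97 over those with a mean above 1 TPM. KO embryo 1 had the lowest value of the 9 for 15 of the 37 genes (40.5%; 28.0% of all genes), WT embryo 4 for 11 (29.7%; 11.9% of all genes) and KO embryo 4 for 7 (18.9%; 13.2% of all genes). The highest value was in WT embryo 1 for 11 genes (29.7%; 13.03% of all genes) and in KO embryo 2 for 11 genes (29.7%; 23.3% of all genes). WT embryo 4 was below the WT mean for 35 of the 37 genes, against 52.0% of all genes. KO embryo 1, whose size factor was the lowest, was below it for 31 of the 37, against 70.8% of all genes. The SD of log2(TPM + 1) was larger in KO than in WT for 25 of the 37 genes (67.6%), close to the 70.1% of all genes.

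Lineage markers moved along with some of these differences between embryos. A fit given below, with the mean of the trophectoderm markers as a covariate, still tested KO against WT. The part of the lineage markers in the results was not tested. The 10 trophectoderm markers (*CDX2*, *GATA2*, *GATA3*, *TFAP2A*, *TFAP2C*, *KRT8*, *KRT18*, *KRT19*, *PTGS2* and *IFNT2*) were all above 0 in each embryo and summed to between 4699 and 21096 TPM in WT and between 6932 and 13851 TPM in KO; 7 of 10 had a fold change below 0 and none passed (median −0.24). Relative to the WT mean of each gene, the median of log2(TPM + 1) over these markers was 0.69 in WT embryo 1, 0.46 in WT embryo 5, 0.34 in WT embryo 2, −0.35 in WT embryo 3 and −0.94 in WT embryo 4. The desmosomal genes, at 0.71, 0.42, 0.11, −0.04 and −1.03, and the tight junction genes, at 0.53, 0.12, 0.06, −0.02 and −0.88, had the same order of WT embryos. The adherens junction, polarity and cortex genes did not follow that order, although WT embryo 4 was the lowest in each of them too. In the KO embryos the markers were at −0.35, 0.46, 0.33 and −1.22 and the desmosomal genes at −0.70, 0.39, −0.44 and −0.52, so that the markers were lowest in KO embryo 4 and the desmosomal genes in KO embryo 1.

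The 6 epiblast markers (*NANOG*, *SOX2*, *SOX15*, *FGF4*, *DPPA3* and *PRDM14*) summed to between 220 and 954 TPM in WT and between 221 and 610 TPM in KO, with *FGF4* listed at 0 in WT embryo 1 and KO embryo 3. Their median relative to the WT mean was highest in WT embryo 4, at 1.69, and lowest in WT embryo 1 and KO embryo 3, at −2.28 and −2.25. Of the 6, 5 had a fold change below 0 and none passed (median −0.53). Of the hypoblast markers, *HNF4A* was listed at 0 in WT embryo 1 and KO embryo 3. *GATA4* was at 1.43, 1.75, 1.09, 1.31 and 1.74 TPM in WT and 0.367, 0.6001, 0.957 and 0.638 TPM in KO, and its groups did not overlap (log2 fold change −0.59, SE 0.20; limma adjusted p = 0.684; exact permutation test, two-sided, p = 0.0159). Groups that do not overlap always give this permutation p. *GATA4* is shown because it was the only 1 of the 8 hypoblast markers without overlap, and it does not stand for that list. Among all genes 179 (1.23%) were lower in KO without overlap.

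With the mean of the trophectoderm markers as a covariate, an alternative chosen after seeing the data, no gene of the set passed. At an unadjusted p under 0.05 the set had 2 of its 37 tested genes, *CLDN3* and *DSC2*, with fold changes of −0.99 and −1.29. In the same fit 971 of all genes (6.65%) reached that p.

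**Figure D5:**
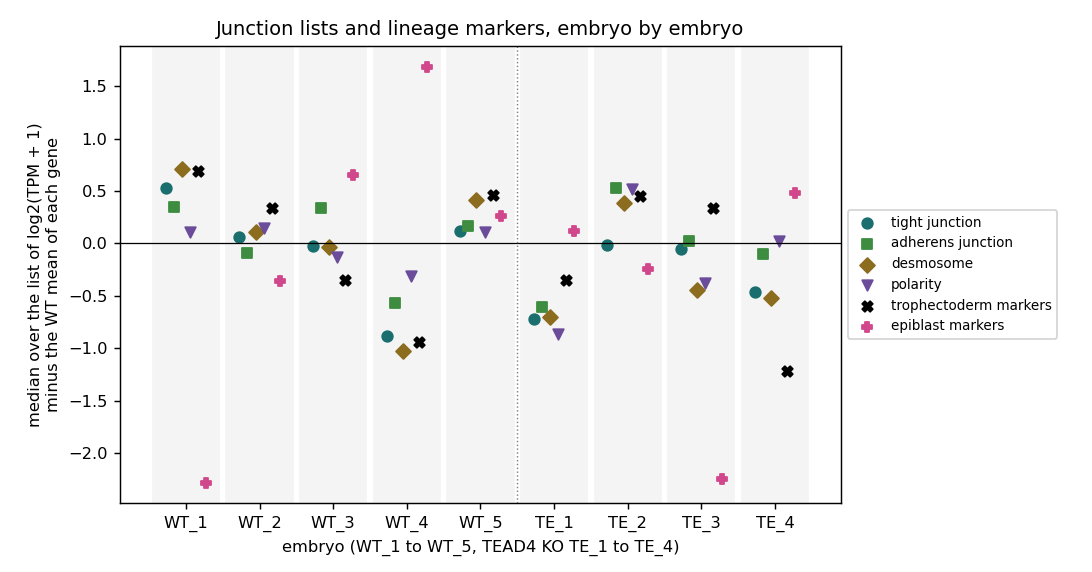
Median over each list of log2(TPM + 1) minus the WT mean of each gene, for 4 groups of junction and polarity genes and for trophectoderm and epiblast markers, in each WT embryo (WT_1 to WT_5) and *TEAD4* KO embryo (TE_1 to TE_4). In WT_4 all 4 groups and the trophectoderm markers are below 0 and the epiblast markers at 1.69, and in TE_1 all 4 groups are below 0.

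RNA of cumulus cells, the somatic cells around the oocyte, was looked for with 9 markers, of which 6 were tested, 4 had a fold change below 0 and none passed (median −0.30). Their sum was 76.7 to 267 TPM in WT and 8.78 to 129 TPM in KO and was led by *CYP11A1*, *FSHR* and *STAR*. *CYP11A1* ranged from 52.7 to 247 TPM in WT and from 4.57 to 96.7 TPM in KO, with 3 of 4 KO embryos below every WT embryo (log2 fold change −2.61, SE 0.73; limma adjusted p = 0.566). *FSHR* was at 12.1 to 26.8 TPM in WT and 1.36 to 23.3 TPM in KO, and *STAR* at 4.48 to 11.7 TPM in WT and 1.62 to 6.60 TPM in KO. *CYP19A1*, *AMH* and *FOXL2* did not exceed 3.05 TPM, and *HAS2*, *PTX3* and *INHBA* did not exceed 0.520 TPM, in any embryo. *PTX3* was at 0 in 6 libraries, *INHBA* in 4, *AMH* in 3, *HAS2* in 2 and *FOXL2* in 1. *CYP19A1* and *AMH*, the 2 tested markers above 0, had log2 fold changes of 0.33 and 0.52. Whether cumulus cells were present, and any part of them in the results, was not tested. Of 15 housekeeping genes 10 had a fold change below 0 and none passed (median −0.10).

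Beyond the 39 genes, 78 other genes of the same structures had a value, 63 of them were tested, and none passed (smallest limma adjusted p = 0.396). The fold change was below 0 for 43 and above 0 for 20, with a median of −0.12. An unadjusted p under 0.05 was reached by 7 (11.1%), all lower in KO, against 5.90% of all genes in either direction and 3.83% lower in KO. By structure, 11 of 16 other tight junction genes, 9 of 14 of the adherens junction, 6 of 6 of the desmosome, 9 of 18 of the polarity groups and 8 of 9 of the cortex were below 0. In 2 of the 63 genes (3.17%) the KO embryos all lay under the lowest WT embryo, as they did in 1.23% of all genes. One of these was *MYL9*, a regulatory light chain of myosin II, at 212, 638, 190, 251 and 399 TPM in WT and 91.1, 136, 135 and 72.8 TPM in KO. The highest KO embryo was thus below the lowest WT embryo, at 136 against 190 TPM (log2 fold change −1.52, SE 0.36, 95% interval −2.31 to −0.74; limma adjusted p = 0.396; exact permutation test, two-sided, p = 0.0159). The other was *LIMA1* (EPLIN), an actin-binding protein that joins the cadherin and catenin complex, at 36.7, 28.9, 28.8, 25.1 and 42.1 TPM in WT and 17.6, 24.5, 22.8 and 16.4 TPM in KO. The gap between its groups was narrow, 24.5 against 25.1 TPM (log2 fold change −0.64, SE 0.25, 95% interval −1.19 to −0.09; limma adjusted p = 0.765; exact permutation test, two-sided, p = 0.0159). The permutation p of both genes is the smallest that 5 against 4 embryos allow. Groups that do not overlap always give it, so it adds nothing to the lack of overlap for which these genes were named.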

How the data were processed

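RNA was sequenced from 5 WT and 4 *TEAD4* KO bovine embryos at D8, each giving 1 library. The deposited table holds TPM computed by the authors for 21512 genes. The submitters' processing notes name FastQC, fastp and kallisto; versions, genome build and annotation are not given in the sources used here. All value columns were used and assigned to a genotype by their names. Embryos are numbered as in those names.

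Genes with a median above 0.1 TPM (14599) were fitted with limma 3.58.1 in R 4.3.3 (lmFit, eBayes with trend) on log2(TPM + 1), two-sided, with Benjamini-Hochberg adjustment over all genes tested; fold changes are on that scale, so the pseudocount of 1 TPM understates those of low genes. Single genes were also tested by exact permutation of mean log2(TPM + 1) over the 126 splits into 5 and 4 (scipy 1.17.1, Python 3.11.15). The code was tested on simulated data. P-values set the difference between KO and WT against the spread between embryos, which limma moderates towards a trend over all genes. The depth of each library cannot be read from TPM.

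The 39 genes, the other junction and polarity genes and the marker lists were chosen with earlier results of these data known. Every embryo's value is given for genes of the set, other junction and polarity genes and markers whose groups do not overlap and, within each structure, for the 2 with the highest mean and the 2 with the greatest absolute fold change; others named are said to be so. All 39 symbols matched RefSeq gene symbols. No sequences or coordinates are shown: the planned comparison of claudin proteins and promoters was not analysed here. The hypoblast marker list as a whole is not reported here. The fit was repeated with a pseudocount of 0.1 TPM, with no filter or a median above 1 TPM, with size factors, quantile normalization, limma without trend, robust or with array weights, leaving out each embryo in turn, and a trophectoderm marker covariate added after seeing the data.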

Additional observations from a re-analysis of the deposited data

Results flagged for a closer look

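Single embryos stood apart from their group for 6 of the 39 genes, in 7 of the 78 groups looked at (8.97%). Chance gives about 1 in 20 for independent groups, which these are not, since the genes share embryos. A value was picked when its gap to the nearest embryo of the same genotype, in log2(TPM + 1), was large against the whole range of that genotype. WT embryo 4 accounted for 4 of the 7, each time as the lowest: *CLDN4* at 438 TPM against 975 to 1295 TPM in the other WT embryos, *CTNNB1* at 81.8 TPM against 138 to 158 TPM, *JUP* at 57.1 TPM against 112 to 147 TPM, and *PATJ* at 1.32 TPM against 5.47 to 8.62 TPM. By the median over each list, the same embryo had the highest epiblast markers and the lowest trophectoderm markers of the WT group. This did not hold for every marker: *SOX15* was higher in WT embryo 3, and *TFAP2A*, *TFAP2C* and *IFNT2* were lower in other WT embryos. *PARD6A* was at 0.203 TPM in KO embryo 1 and between 2.01 and 2.61 TPM in the other KO embryos. *PARD6G* was at 0.0795 TPM in WT embryo 3 against at most 0.0205 TPM in the other WT embryos, and at 0.0555 TPM in KO embryo 3 against 0 in the other KO embryos, where any value above 0 would have been picked; these are levels at which the reads behind a value are unknown. What set these embryos apart was not tested.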

How the results depend on the processing

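No gene of the set passed an adjusted p of 0.05 in any of the 18 alternatives, in which the whole table gave between 0 and 10 genes. Leaving out each embryo in turn gave 1 to 6 genes of the set at an unadjusted p under 0.05. The share of all genes at that p then ran from 3.99% without WT embryo 5 to 8.42% without KO embryo 2. The count of 6 also came from the fit without KO embryo 2. In these fits 0 to 2 genes of the set had groups that did not overlap, and the polarity genes had a median fold change from −0.39 to −0.034. The marker covariate gave 2 genes of the set at an unadjusted p under 0.05, where 6.65% of all genes reached it. Of the other junction and polarity genes, 3 to 10 reached that p when embryos were left out, 3 without WT embryo 5 and 10 without KO embryo 2. With array weights 11 did, where 7.88% of all genes did. Groups did not overlap for 2 to 6 of them when embryos were left out, 4 with size factors and 5 with quantile normalization. The share of all genes without overlap is not given for the alternatives. Of 702 fold changes of single genes under an alternative (the 37 tested genes of the set, *MYL9* and *LIMA1*), 628 kept their sign and side of the threshold and 74 changed sign; 20 of these 39 genes never did. The fold change crossed 0 when single embryos were left out for *TJP1* (−0.25 to 0.14), *CLDN4* (−0.35 to 0.21), *CLDN6* (−0.13 to 0.40), *CLDN10* (−0.66 to 0.98), *F11R* (−0.31 to 0.27), *CDH1* (−0.28 to 0.33), *CTNNA1* (−0.50 to 0.14), *CTNND1* (−0.26 to 0.070), *NECTIN2* (−0.25 to 0.11), *AFDN* (−0.15 to 0.12), *JUP* (−0.26 to 0.33), *PKP3* (−0.49 to 0.011), *DSG2* (−0.38 to 0.36), *PARD6A* (−0.19 to 0.34), *PRKCI* (−0.086 to 0.79), *PRKCZ* (−0.40 to 0.023), *LLGL1* (−0.20 to 0.15), *LLGL2* (−0.11 to 0.28) and *SCRIB* (−0.053 to 0.20). With size factors it also did for *TJP1* (0.016), *CLDN4* (0.0031), *NECTIN2* (0.024), *AFDN* (0.056) and *LLGL1* (0.033), with quantile normalization for *TJP1* (0.041), *AFDN* (0.11), *PARD6A* (0.017) and *LLGL1* (0.055), and with array weights for *CLDN6* (−0.064), *CDH1* (−0.041), *CTNND1* (0.077), *JUP* (−0.12), *PARD6A* (0.020), *LLGL2* (−0.16) and *SCRIB* (−0.077). With the marker covariate it did for *TJP1* (0.10), *CLDN4* (0.22), *F11R* (−0.086), *NECTIN2* (0.12), *AFDN* (0.037), *PKP3* (0.0067) and *PARD6A* (0.029). The cause was not tested. No paired analysis was possible because each column is a separate embryo and the numbers 1 to 4 that recur in both genotypes are not described as pairs. *OCLN*, *CLDN1*, *CLDN3*, *DSC2* and *DLG1* stayed below 0 in every alternative and kept an unadjusted p under 0.05 in 10, 10, 14, 15 and 13 of the 18. Among the 9 fits that each left out 1 embryo, they kept it in 2, 4, 5, 6 and 5. Without read counts the precision of low values, such as those of *DSC3*, *PARD6G* and *PARD6A*, is unknown, and 4 KO embryos limit what could be seen: the 95% interval had a median half-width of 0.80 on the log2 scale over the 37 tested genes.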
